A study of Macaca fascicularis and Macaca mulatta and Papio anubis with 20 samples.

Results

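Immediate early genes are transcribed within minutes of a stimulus to a cell, without new protein synthesis. The genes described here are FOS, FOSB, JUN, JUNB, JUND, EGR1, EGR3 and IER2, 8 genes chosen by name. FOS and FOSB proteins pair with JUN, JUNB or JUND proteins to form AP-1, a transcription factor. EGR1 and EGR3 are zinc finger transcription factors, and IER2 is a small nuclear protein of the same response. In dorsal root ganglia, where the cell bodies of sensory neurons lie among satellite glia, Schwann cells, vessels and connective tissue, FOS and JUN are widely used as marks of recent stimulation or nerve injury.

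They were measured in fresh frozen dorsal root ganglia of non-human primates by Visium, an assay in which a tissue section lies on an array of barcoded capture spots. Each captured transcript is counted by its unique molecular identifier (UMI), so a spot reads a patch of tissue, usually more than a single cell. *Macaca fascicularis* gave 16 sections, 4 for each title code, and the codes were a batch 1 female, a batch 1 male, a batch 2 female and a batch 2 male. A title code is called a specimen here, although the labels do not state that its sections come from 1 animal. A further 2 sections were labelled *Macaca mulatta* and 2 *Papio anubis*, all in batch 2 and with no sex given. The labels name no treatment, genotype or age, and all ganglia were bought from 1 supplier. Sections were 10 µm thick and 100 µm apart within a ganglion.

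Of the 8 genes, 5 were matched by symbol among the 22000 features counted in *M. fascicularis*: FOS, FOSB, JUN, EGR1 and EGR3. JUNB, JUND and IER2 were not matched there and are not analysed in those sections. The table of the sections labelled *M. mulatta* matched 7 genes, all but JUND, of 20842 features. The table of those labelled *P. anubis* matched 7, all but IER2, of 21369 features. Sequencing depth under tissue ran from 1136433 to 7073134 UMIs per *M. fascicularis* section. The section labelled *M. mulatta* with the fewest UMIs held 190376, and the deepest section labelled *P. anubis* held 12595205. Neuronal markers were abundant in every *M. fascicularis* group, with a mean summed level between 23788 and 31270 CPM (UMIs of a gene per 1000000 UMIs under tissue) for 14 measured genes. Gene identifiers with the *P. anubis* prefix stood in the tables labelled *M. mulatta*, and the reverse, so those labels may be crossed. For male section 3 of batch 2 only the gene totals were used.

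FOS and JUN held nearly all UMIs of the matched genes in *M. fascicularis*. FOS had 10028 UMIs over the 16 sections, or 58.1% of the genes' UMIs, and JUN had 7177, or 41.6%. EGR1 had 56 UMIs, spread over 13 sections with at most 13 in any of them. FOSB had 2 UMIs, 1 in each of 2 sections, and EGR3 had 0. With 0 UMIs over all 16 sections, EGR3 could have reached 0.0474 CPM, the level of 3 UMIs in the summed depth. Such limits, and the binomial intervals below, cover counting error only. The results therefore turn on FOS and JUN, with EGR1 where its counts allow.

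FOS varied far more between sections than JUN did. Its lowest section was at 32.6 CPM and its highest at 1221 CPM, a 37.5-fold range. For JUN the range was 8.54-fold, from 55.1 to 470 CPM. In the female specimen of batch 1, FOS was at 1221, 343, 93.0 and 109 CPM in sections 1 to 4. Sections 1 and 2 lay above every section of the other 3 specimens, and sections 3 and 4 did not.

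In the male specimen of batch 1, FOS was at 268, 262, 115 and 73.9 CPM in sections 1 to 4. In the female specimen of batch 2 it was at 35.6, 40.5, 32.6 and 35.2 CPM. These 4 values were the lowest of all 16 and overlapped no other specimen. In the male specimen of batch 2 FOS was at 180, 177, 284 and 146 CPM, within the range of the batch 1 female, and its section 3 lay above all sections of the batch 1 male.

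Averaged over sections, FOS was at 442 ± 532 CPM (SD, n = 4) in the batch 1 female and at 180 ± 100 CPM (SD, n = 4) in the batch 1 male. In batch 2 it was at 35.9 ± 3.28 CPM (SD, n = 4) in the female and at 197 ± 60.4 CPM (SD, n = 4) in the male. The SD of the batch 1 female exceeds its mean. Without section 1, the summed level of the matched genes in that specimen was 321 CPM in place of 664 CPM.

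JUN followed the same order of specimens at the extremes, with a narrower spread. In the batch 1 female it was at 470, 210, 92.8 and 109 CPM in sections 1 to 4. In the batch 1 male it was at 146, 151, 89.0 and 73.9 CPM. The batch 2 female had 68.6, 72.4, 55.1 and 79.7 CPM, and the batch 2 male 142, 97.7, 114 and 126 CPM. The highest JUN section of the batch 2 female lay above the lowest of the batch 1 male, so these specimens overlapped for JUN but not for FOS. Means were 221 ± 174, 115 ± 39.4, 68.9 ± 10.3 and 120 ± 18.6 CPM (SD, n = 4 each) in the batch 1 female, batch 1 male, batch 2 female and batch 2 male.

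**Figure D1:**
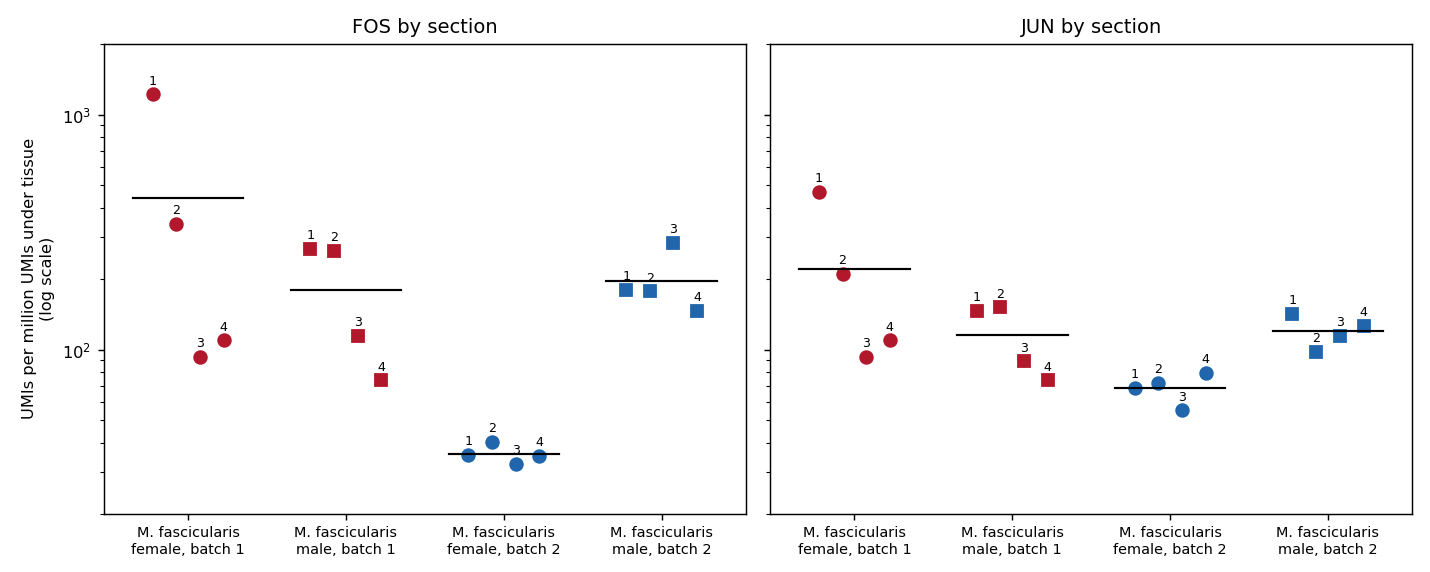
FOS (left) and JUN (right) in CPM, on a log scale, for each *M. fascicularis* section; digits are section numbers, circles female, squares male, red batch 1, blue batch 2, and bars the mean of 4 sections. The 4 sections of the batch 2 female sit between 32.6 and 40.5 CPM for FOS, below all others, and sections 1 and 2 of both batch 1 specimens sit above their sections 3 and 4.

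The balance of FOS and JUN differed by specimen as well. FOS UMIs per JUN UMI were 2.60, 1.63, 1.00 and 1.00 in sections 1 to 4 of the batch 1 female and 1.83, 1.74, 1.29 and 1.00 in the batch 1 male. In the batch 2 male they were 1.27, 1.81, 2.49 and 1.16. In the batch 2 female they were 0.519, 0.559, 0.592 and 0.441, so JUN UMIs outnumbered FOS UMIs in all 4 sections there. Each ratio is of 2 genes within a library, and their capture efficiencies were not measured.

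In both batch 1 specimens the sections with more FOS were sections 1 and 2. JUN was also higher in sections 1 and 2 than in sections 3 and 4 of the same specimen, in both. The library names number sections 1 and 2 of both specimens of a batch apart from sections 3 and 4. What this numbering stands for is not stated in the labels, and its part in the difference was not tested. In the batch 2 female sections 1 and 2 also had more FOS than sections 3 and 4, by a narrow margin. The FOS values there were 35.6 and 40.5 against 32.6 and 35.2 CPM. JUN did not show this order in that specimen, and in the batch 2 male neither gene did, with FOS highest in section 3.

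FOS was detected, with at least 1 UMI, in between 5.62% and 61.4% of the tissue spots of a section, over the 15 sections with spots (median 23.8%). The highest share was in section 2 of the batch 1 female (366 of 596 spots; 95% interval 57.4% to 65.3%, exact Clopper-Pearson). The lowest was in section 3 of the batch 2 female (122 of 2171 spots; 4.69% to 6.67%). JUN was detected in between 8.57% and 55.0% of spots (median 21.1%). Shares of spots depend on depth, so spots were also thinned to 500 UMIs each, leaving out shallower spots. At that depth FOS was present in 42.7%, 21.1%, 5.83% and 6.09% of spots in the batch 1 female and in 16.9%, 15.2%, 7.05% and 5.78% in the batch 1 male. The batch 2 female had between 1.395% and 3.33% and the batch 2 male between 7.18% and 8.003%. At equal depth the batch 2 female was thus again the lowest, and sections 1 and 2 of batch 1 again exceeded sections 3 and 4. Thinning left out between 56 and 1379 spots per section.

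Spots outside the tissue gave the background of transcripts that move over the array. There FOS was present in a median of 1.73% of spots, with a median depth of 27 UMIs per spot against 828 under tissue. FOS made up a larger share of the off-tissue UMIs than of the tissue UMIs in 12 of 15 sections (median ratio 1.48), and JUN in 10 of 15 (median ratio 1.13). The FOS level outside the tissue was 1253 CPM in section 1 of the batch 1 female, beside 1221 CPM under it. Levels near the tissue border can therefore include transcripts from elsewhere in the section, a part that was not tested.

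The comparison of the batches and of the sexes used the summed UMIs of each of the 4 specimens in a model with sex and batch (edgeR's quasi-likelihood test, Benjamini-Hochberg adjustment over 12650 genes). Neither comparison called any of the 3 genes tested, FOS, JUN and EGR1. DESeq2 called 0 of them as well, and 0 had an unadjusted p under 0.05. FOS had a log2 fold change of -1.195 in batch 2 over batch 1 (SE 0.64, adjusted p = 0.365). JUN had a log2 fold change of -0.42 (SE 0.31, adjusted p = 0.512) and EGR1 of -0.35 (SE 0.90, adjusted p = 0.876). Over all genes tested, 364 were called between batches, or 2.88% (1.26% higher and 1.61% lower in batch 2). With sections 1 and 2 of both batch 1 specimens left out, the differences were -0.03 for FOS and 0.16 for JUN, an alternative chosen after seeing the data. With no filter on low counts FOS was called (-1.21, adjusted p = 0.00147).

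Between female and male, FOS had a log2 fold change of -0.79 (SE 0.64, adjusted p = 0.998), JUN of -0.04 (SE 0.31, adjusted p = 0.998) and EGR1 of -0.46 (SE 0.90, adjusted p = 0.998). No gene was called, 0% of those tested, and 169 genes had an unadjusted p under 0.05. The female of batch 1 held the most FOS and the female of batch 2 the least, so the 2 specimens of that sex stood at opposite ends. With 1 specimen per sex and batch, the model leaves 1 residual degree of freedom, and a specimen's own level cannot be told apart from the combination of its sex and batch.

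The relatives and regulators of these genes were described from lists chosen by name. Of 41 other early response genes, 26 were tested between batches. PPP1R15A, which encodes a phosphatase subunit of the stress response, rose in batch 2 (log2 fold change 1.61, adjusted p = 0.0155), and so did MAFF, a small MAF transcription factor (1.58, adjusted p = 0.0424). The other 24 were not called, and the list's median was -0.08 beside -0.01 over all genes. Of 26 kinases, regulators and partners of AP-1 and EGR proteins, 23 were tested, and MAPK3, the kinase ERK1, was higher in batch 2 (3.39, adjusted p = 0.00567). Of 4 heat shock genes tested, HSPH1 was lower in batch 2 (-1.22, adjusted p = 0.0287). Between the sexes none of these genes was called.

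The authors' deposited Moran's I scores how alike the values of neighbouring spots are, with 0 for no spatial pattern. For FOS it had a median of 0.0600 over the 16 sections, from 0.00581 to 0.359. By the deposited adjusted p-values FOS passed 0.05 in 11 of 16 sections, and JUN in 5 of 16. Over all genes and these sections, 16.2% of values passed. FOS ranked at a median percentile of 95.4 among the genes of its section, and JUN at 80.2.

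FOS scored 0.359, 0.311, 0.0343 and 0.0183 in sections 1 to 4 of the batch 1 female and 0.163, 0.314, 0.0768 and 0.0831 in the batch 1 male. In the batch 2 male it scored 0.254, 0.0432, 0.171 and 0.0289. In the batch 2 female no section exceeded 0.0264, and 1 of 4 passed. The highest scores came from sections with much FOS. JUN had a median of 0.0103 (-0.00592 to 0.173), and its 5 passing sections were sections 1 and 2 of both batch 1 specimens and section 3 of the batch 1 male. EGR1 passed in 0 of 13 sections.

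Moran's I was recomputed from spot shares with 6 neighbours per spot. The median was 0.0796 for FOS and 0.0368 for JUN, and after thinning to 500 UMIs it was 0.0449 and 0.0193. The highest thinned FOS score was 0.388.

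**Figure D2:**
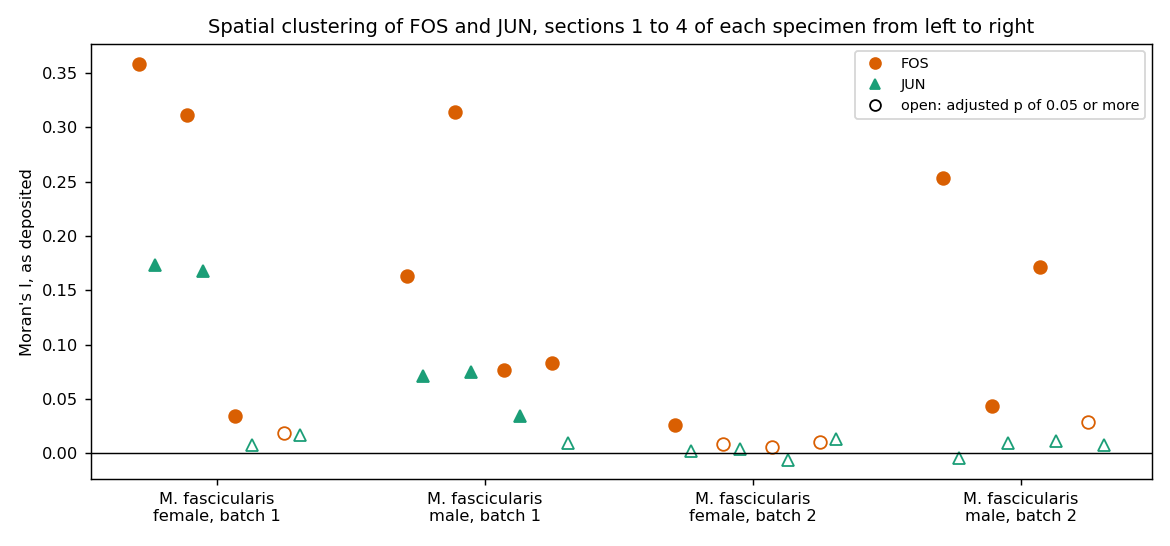
Moran's I as deposited by the authors, for FOS (circles) and JUN (triangles) in each *M. fascicularis* section, ordered 1 to 4 within each specimen; filled symbols have a deposited adjusted p under 0.05. FOS passes in 11 of 16 sections and reaches 0.359, and JUN passes in 5, all in batch 1.

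A single spot held up to 79 FOS UMIs, in section 1 of the batch 1 female, and up to 15 JUN UMIs. FOS and JUN were both present in 1881 spots, which is 41.4% of the spots with FOS and 42.9% of those with JUN. Over the spots of a section, the Pearson correlation of their shares had a median of 0.0843 (-0.0544 to 0.363). The values of 1 section share a library and are sparse, and no p is given.

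FOS was higher in spots at the tissue border, which have at least 1 neighbour off tissue, than in interior spots in 12 of 15 sections (median ratio 1.41). JUN was higher at the border in 10 of 15 (median ratio 1.28). In batch 1 the FOS ratio was above 1 in all 8 sections, between 1.27 and 3.65. In batch 2 it was above 1 in 4 of 7.

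To find which tissue compartments carried these genes, the share of UMIs from a list of cell type markers was computed for each spot with at least 200 UMIs. The 25% of spots with the highest share in a section, if above 0, were called rich in that list. In the batch 2 male fewer spots held any marker UMI for some lists, so rich there means any such UMI: 372 rich and 1245 other spots for fibroblast in section 2, 132 and 490 in section 4, and 129 rich spots for smooth muscle in section 4. These rich spots were also the deeper ones, with a median of 1900 against 693.5 UMIs for fibroblast and 1940 against 729 UMIs for smooth muscle in section 4. Over all sections the reverse was more common. Fibroblast-rich spots were shallower in 12 of 15 sections, at a median of 918.5 against 2122 UMIs. Smooth muscle-rich spots were shallower in 14 of 15, at 861 against 2106.5 UMIs. UMIs were then summed by specimen over rich and over other spots, and the classes were compared across the 4 specimens with the specimen as a block. None of the 8 genes is in a marker list. Classes overlap: fibroblast-rich and smooth muscle-rich spots shared a median of 50.6% of their spots, and Schwann-rich and adipocyte-rich spots 47.8%. In such sums, more cells of a type and more RNA per cell cannot be told apart. Levels are shares of the UMIs of a class, so a lower level can go with more UMIs per spot in a deeper class. The adjusted p-values of these comparisons come from edgeR's quasi-likelihood fit, adjusted by Benjamini-Hochberg over every gene in the comparison. They rest on that block: without it none of these calls of FOS and JUN held, with adjusted p-values for FOS between 0.186 and 1.

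In neuron-rich spots both FOS and JUN made up a smaller share of the UMIs. In the batch 1 female FOS stood at 191 CPM where neuronal markers were rich and at 331 CPM elsewhere, and in the batch 1 male at 113 and 207 CPM. In batch 2 it stood at 28.9 and 44.2 CPM in the female and at 114 and 188 CPM in the male. All 4 specimens moved the same way, and 14 of 15 sections did. FOS fell by 0.69 on the log2 scale (SE 0.06, adjusted p = 2.18e-07) and JUN fell by 0.27 (SE 0.07, adjusted p = 0.00263). These are 2 of 3 genes tested, beside 41.6% of all genes called in this comparison (20.2% higher, 21.5% lower). EGR1 was not called (log2 fold change 0.40, SE 0.45, adjusted p = 0.516). Neuron-rich spots were the deeper class in 15 of 15 sections, with a median of 4929 UMIs against 1213. By count, the batch 1 female had 1372 FOS UMIs in 971 neuron-rich spots and 3085 in 2908 other spots. The batch 1 male had 959 in 1251 and 2228 in 3747. The batch 2 female had 296 in 1568 and 385 in 4692, and the batch 2 male 209 in 867 and 817 in 2590. Per spot, FOS UMIs were thus more in neuron-rich spots of each specimen but the batch 2 male. With spots thinned to 500 UMIs FOS was lower still, at -1.02. JUN was not called in the batch 2 specimens alone (-0.23, adjusted p = 0.28).

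Of the 8 classes, the fibroblast-rich and smooth muscle-rich spots had the highest mean FOS levels, at 483 ± 431 and 458 ± 367 CPM (SD, n = 4 specimens). The batch 1 specimens set this order: in the batch 2 male the Schwann-rich spots were highest, at 486 CPM, and in the batch 2 female they stood at 78.1 CPM, between smooth muscle-rich and fibroblast-rich spots. In smooth muscle-rich spots, chosen by vessel wall genes such as ACTA2 and TAGLN, FOS stood at 891 CPM against 211 CPM in other spots of the batch 1 female. It stood at 622 against 123 CPM in the batch 1 male, at 83.7 against 33.2 CPM in the batch 2 female and at 234 against 144 CPM in the batch 2 male. FOS rose by 1.63 on the log2 scale (SE 0.23, adjusted p = 0.000611), and it was higher in 14 of 15 sections. JUN rose by 0.65 (SE 0.19, adjusted p = 0.0269), from a mean of 109 ± 33.6 to 188 ± 105 CPM (SD, n = 4 specimens). Both of the 2 genes tested were called, beside 23.4% of all genes (14% higher, 9.35% lower). EGR1 was too scarce to be tested in the main fit. It was called with the top 10% of spots (2.36, adjusted p = 0.0166) and with shares over neighbouring spots (2.04, adjusted p = 0.0199). Without the batch 2 male it was called too (2.12, adjusted p = 0.0113), but not with no filter on low counts (1.57, adjusted p = 0.102). The JUN call was lost without the batch 1 female (adjusted p = 0.166), the batch 1 male (0.211) or the batch 2 female (0.0629). It was also lost in batch 2 alone, where JUN was at 0.17 (adjusted p = 0.96).

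In fibroblast-rich spots FOS stood at 1002 against 209 CPM in the batch 1 female and at 669 against 121 CPM in the batch 1 male. In batch 2 it stood at 74.6 against 33.7 CPM in the female and at 187 against 157 CPM in the male. All 15 sections were higher, and FOS rose by 1.57 on the log2 scale (SE 0.32, adjusted p = 0.0122). JUN was not called (0.64, SE 0.26, adjusted p = 0.108). So 1 of 2 genes tested was called, beside 17.1% of all genes (11.3% higher, 5.82% lower). After thinning to 500 UMIs JUN was called too (0.73, adjusted p = 5.87e-05), and in batch 2 alone it stood at -0.073. The FOS call was lost without the batch 1 female (adjusted p = 0.0924), the batch 1 male (0.0788) or the batch 2 female (0.115). Section ratios ran from 3.60 to 7.50 in batch 1 and from 1.07 to 5.31 in batch 2.

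The fibroblast list itself was thin in batch 2. Its mean summed level was 2136 ± 859 and 1640 ± 480 CPM (SD, n = 4) in the batch 1 female and male, and 384 ± 57.0 and 296 ± 173 CPM in those of batch 2, for 11 of 11 genes measured. COL1A1, a main collagen gene of fibroblasts, was at 177 and 126 CPM in batch 1 and at 1.38 and 2.97 CPM in batch 2. In batch 2 alone FOS was not called (0.76, adjusted p = 0.261). The difference between batches in the FOS fold change was -1.58 (SE 0.36, adjusted p = 0.523) and was not called, as was no gene of that test (0% of 10825). The part of the thin list in the smaller batch 2 fold was not tested.

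Endothelium-rich spots were chosen by vessel lining genes such as PECAM1 and VWF. Their FOS level was above that of other spots in 8 of 8 sections of batch 1 and in 2 of 7 sections of batch 2. FOS stood at 498 against 221 CPM in the batch 1 female and at 335 against 128 CPM in the batch 1 male. In batch 2 it stood at 36.2 against 35.8 CPM in the female and at 174 against 163 CPM in the male. Endothelium-rich spots were the shallower class in 7 of 15 sections, all of them in batch 1. They were the deeper class in every section of batch 2, and the part of depth in these levels was not tested. Over all 4 specimens FOS rose by 0.77 (SE 0.17, adjusted p = 0.0114), and JUN was not called (0.26, SE 0.10, adjusted p = 0.12). That is 1 of 2 genes tested, beside 6.53% of all genes (4.82% higher, 1.72% lower). JUN was called after thinning to 500 UMIs (0.46, adjusted p = 0.0235) and stood at -0.069 in batch 2 alone. The FOS call was lost with DESeq2 (0.66, adjusted p = 0.456) and without the batch 1 female (0.60, adjusted p = 0.131).

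The difference between the batches was itself tested, in a fit with the class by batch term, which was added after seeing the data. The FOS fold change was 1.19 lower in batch 2 on the log2 scale (difference -1.19, SE 0.10, adjusted p = 3.21e-12), and that of JUN was 0.60 lower (-0.60, SE 0.09, adjusted p = 1.68e-05). In this test 8.05% of all genes were called. In the other 7 classes none of FOS, JUN and EGR1, where tested, was called for such a difference. There the share of all genes called was 0.0413% for neurons, 0.770% for myelinating Schwann cells, 0.203% for satellite glia, 0.0626% for macrophages, 6.29% for adipocytes and 0% for fibroblasts and smooth muscle. Though not called, the difference was -1.58 for FOS (SE 0.36) and -1.40 for JUN (SE 0.26) in fibroblast-rich spots. In smooth muscle-rich spots it was -1.12 for FOS (SE 0.30) and -0.94 for JUN (SE 0.24). These SEs were wider than those of the endothelium-rich class. In endothelium-rich spots, section ratios of FOS ran from 2.15 to 3.22 in batch 1 and from 0.859 to 1.90 in batch 2, with no overlap. The fit has 2 residual degrees of freedom and borrows the spread from other genes, so its p-values rest on 4 specimens. In sum, the endothelial list differed less between the batches than the fibroblast list: 344 ± 87.1 and 307 ± 25.8 CPM (SD, n = 4) in batch 1 and 258 ± 11.5 and 334 ± 99.4 CPM in batch 2. Its largest member, EGFL7, was at 148 and 143 CPM in batch 1 and at 142 and 151 CPM in batch 2. VWF was higher in batch 2, at 57.2 and 77.6 CPM against 50.5 and 38.2 CPM. CD34, CDH5, EMCN, ESAM, PECAM1, PLVAP and TEK were lower in both batch 2 specimens. CD34 was at 39.3 and 29.0 CPM in batch 1 and at 15.1 and 5.69 CPM in batch 2. TEK was at 6.16 and 5.14 CPM in batch 1 and at 0.776 and 1.58 CPM in batch 2.

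Spots rich in myelinating Schwann cell markers, genes of the myelin sheath such as MBP, also had a larger share of FOS among their UMIs. It stood at 451 against 259 CPM in the batch 1 female and at 316 against 156 CPM in the batch 1 male. It stood at 78.1 against 34.2 CPM in the batch 2 female and at 486 against 132 CPM in the batch 2 male. FOS rose by 1.22 (SE 0.16, adjusted p = 1.96e-06), in 14 of 15 sections. JUN was not called (0.29, SE 0.14, adjusted p = 0.108), so 1 of 2 genes was called, beside 35.1% of all genes (18.1% higher, 17.1% lower). Schwann-rich spots were shallower in 15 of 15 sections, with a median of 583 UMIs against 2190.5. With spots thinned to 500 UMIs, which leaves out shallower spots, the FOS difference was 0.35 (SE 0.14, adjusted p = 0.122).

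Adipocyte-rich spots were likewise shallower in 15 of 15 sections, at a median of 887 against 1846 UMIs. FOS rose there by 0.74 (SE 0.11, adjusted p = 0.000352), from a mean of 148 ± 87.6 to 263 ± 188 CPM (SD, n = 4 specimens). JUN rose by 0.32 (SE 0.10, adjusted p = 0.0281), from 114 ± 38.1 to 143 ± 48.1 CPM. Both of 2 genes were called, beside 22.5% of all genes (12.8% higher, 9.71% lower). After thinning neither was called, with FOS at 0.14 (adjusted p = 0.587) and JUN at 0.14 (adjusted p = 0.648). The JUN call was also lost without the batch 1 female (adjusted p = 0.159), its section 1 (0.0538), the batch 1 male (0.103) or the batch 2 female (0.074).

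Macrophage-rich spots had a higher FOS level by a smaller margin, 0.33 (SE 0.10, adjusted p = 0.0359), with 185 ± 101 against 154 ± 93.2 CPM (SD, n = 4 specimens). JUN was not called (0.16, SE 0.07, adjusted p = 0.147), so 1 of 2 genes was called, beside 17.1% of all genes (10.2% higher, 6.85% lower). The FOS call was lost after thinning (0.21, adjusted p = 0.295). It was also lost without the batch 1 female (adjusted p = 0.0924), the batch 1 male (0.0749) or the batch 2 male (0.056).

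Satellite glia wrap the cell bodies of the sensory neurons. In spots rich in their markers none of the 3 genes tested was called by edgeR, beside 12.5% of all genes (7.71% higher, 4.82% lower), and 1 of them, EGR1, had an unadjusted p under 0.05. DESeq2 called neither FOS nor JUN and gave EGR1 no adjusted p. FOS stood at 168 ± 89.1 CPM there and at 157 ± 98.7 CPM elsewhere (SD, n = 4 specimens), a log2 fold change of 0.13 (SE 0.07, adjusted p = 0.214). JUN was at 0.07 (SE 0.06, adjusted p = 0.531). EGR1 was at 1.32 (SE 0.48, adjusted p = 0.0723). Of its 56 UMIs over all 16 sections, 7 lay in male section 3 of batch 2, which does not enter the spot classes. Without section 1 of the batch 1 female, FOS was called at 0.25 (adjusted p = 0.00344) and EGR1 at 1.40 (adjusted p = 0.0486). EGR1 was also called without the batch 2 female (1.51, adjusted p = 0.0181) and with adjustment over all 8 comparisons (adjusted p = 0.0483). After thinning to 500 UMIs FOS stood at -0.19 and JUN at -0.27.

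**Figure D3:**
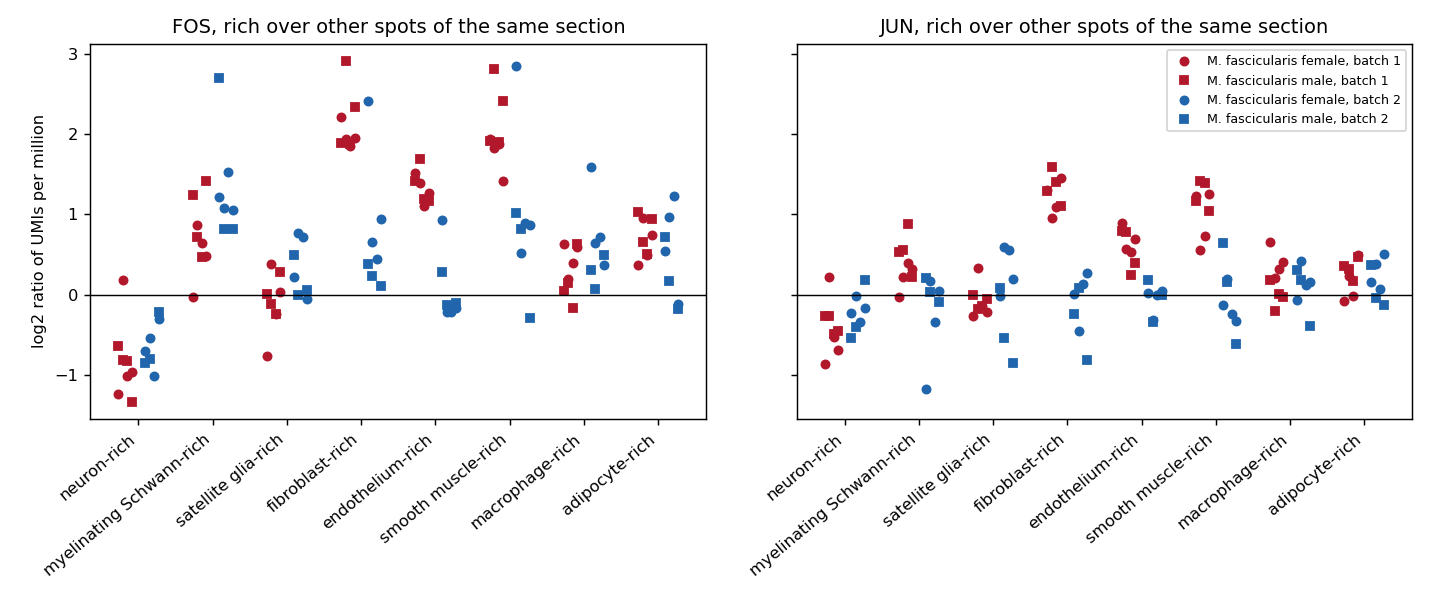
Log2 ratio of CPM in marker-rich over other spots of the same section, for FOS (left) and JUN (right), by marker list; circles female, squares male, red batch 1, blue batch 2, one symbol per section with spots. FOS lies below 0 in 14 of 15 sections for neuron-rich spots and above 0 in 15 of 15 for fibroblast-rich spots, and for endothelium-rich spots batch 1 lies above batch 2.

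Because marker-rich classes overlap, the shares of all 8 lists were also entered together in a Poisson regression over the spots of each section, with total UMIs as the offset. Coefficients were averaged by specimen and are given as the log2 change per SD of a list's share, with no p. For FOS, the neuron coefficient was -0.33 ± 0.10 (SD, n = 4 specimens), below 0 in all 15 sections. The fibroblast coefficient was 0.47 ± 0.35, above 0 in 14 of 15 sections, and the smooth muscle coefficient was 0.29 ± 0.11, above 0 in 13 of 15. The fibroblast coefficient was 0.75 and 0.79 in the batch 1 female and male and 0.11 and 0.24 in those of batch 2. The endothelium coefficient was 0.14 ± 0.14. With a minimum of 1000 UMIs per spot the neuron coefficient was -0.15 ± 0.08, below 0 in 14 of 15 sections. The fibroblast coefficient was then 0.36 ± 0.43, above 0 in 11 of 15 sections, and it turned to -0.13 in the batch 2 female. The smooth muscle coefficient was 0.22 ± 0.15, and 0.03 in the batch 2 male.

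The myelinating Schwann coefficient for FOS had opposite signs in the batches. It was -0.30 and -0.24 in the batch 1 female and male and 0.26 and 0.72 in those of batch 2. In the comparison of spot classes all 4 specimens had a higher FOS level in Schwann-rich spots, so in batch 1 the sign differed between these measures. The regression holds the other lists and takes a log-scaled share in place of classes, and the part of each was not tested. For satellite glia, macrophages and adipocytes, the FOS coefficients were 0.00 ± 0.10, 0.02 ± 0.07 and 0.02 ± 0.12. JUN coefficients were closer to 0 than those of FOS for neurons, fibroblasts and smooth muscle. They were -0.10 ± 0.10 for neurons, 0.15 ± 0.26 for fibroblasts and 0.06 ± 0.15 for smooth muscle. For macrophages, satellite glia and adipocytes they were farther from 0 than those of FOS, at 0.11 ± 0.04, -0.09 ± 0.10 and 0.05 ± 0.16. The macrophage coefficient of JUN was above 0 in all 4 specimens, at its lowest 0.05.

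**Figure D4:**
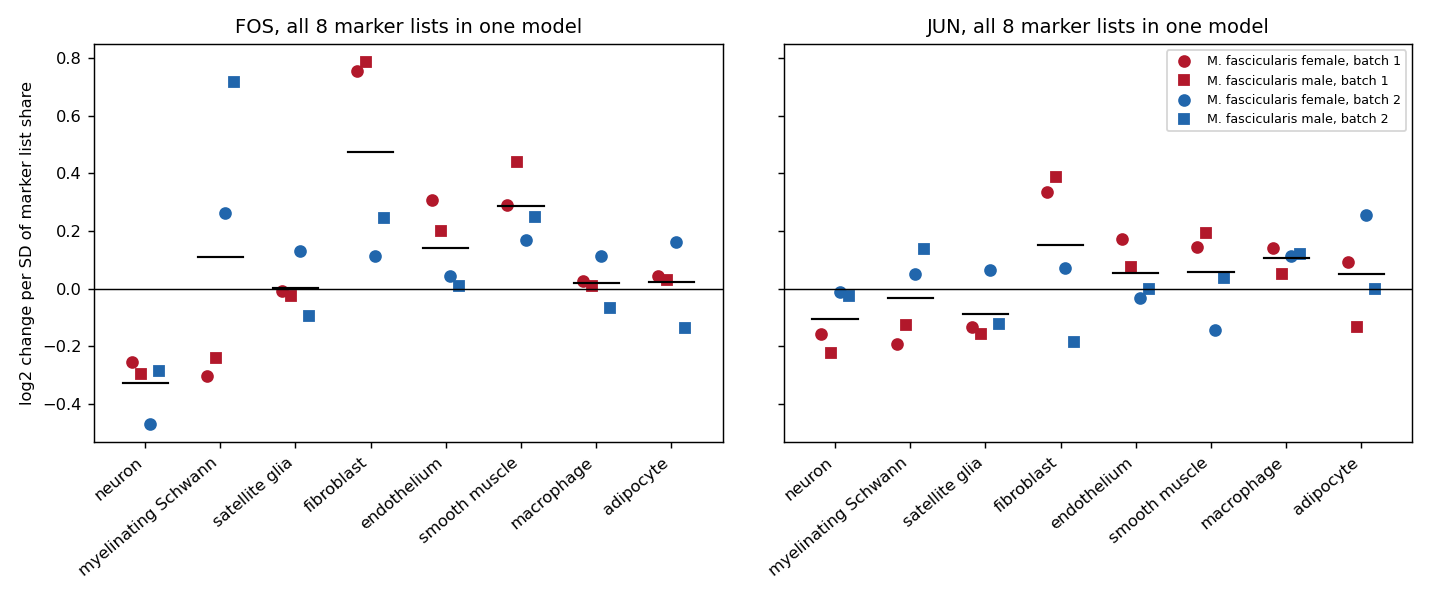
Coefficients of the 8 marker lists in one regression over spots, as log2 change of FOS (left) and JUN (right) per SD of the list's share; symbols are specimens (circles female, squares male, red batch 1, blue batch 2) and bars the mean of 4 specimens. The neuron coefficient of FOS is below 0 in all 4 specimens and those of fibroblast and smooth muscle are above 0 in all 4, at a minimum of 200 UMIs per spot; at 1000 UMIs the fibroblast coefficient of the batch 2 female is -0.13.

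The other early response genes, which include phosphatases and RNA-binding proteins that limit the response, could be set beside FOS and JUN in the same comparisons. In neuron-rich spots 19 of 27 tested fell and 1 rose, beside 21.5% and 20.2% of all genes, with a list median of -0.57 beside -0.03 over all genes. The largest falls were those of ZFP36L1, which promotes mRNA decay (-1.13), CCN1, a secreted matrix protein (-0.93), and KLF4, a transcription factor (-0.90). DUSP5, a nuclear ERK phosphatase, rose by 0.97. All 4 adjusted p-values were at or below 2.68e-05.

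In smooth muscle-rich spots 21 of 27 rose and 0 fell, beside 14% and 9.35% of all genes (median 1.22 beside 0.01). CCN1 rose by 2.11, RHOB, a small GTPase, by 2.07 and ZFP36L1 by 1.91. In fibroblast-rich spots 18 of 27 rose and 0 fell, beside 11.3% and 5.82% (median 1.13 beside 0.01), led by ZFP36L1 (1.95), CCN1 (1.91) and KLF4 (1.71). In endothelium-rich spots 14 of 27 rose and 0 fell, beside 4.82% and 1.72% (median 0.52 beside 0.00), led by KLF4 (1.08), BTG2, an antiproliferative gene (1.01), and CCN1 (0.99).

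In Schwann-rich spots 18 of 27 rose and 1 fell, beside 18.1% and 17.1% of all genes (median 0.86 beside 0.01). EGR2, a transcription factor required for myelination, rose by 2.44 (SE 0.19, adjusted p = 6.53e-10). NR4A2, a nuclear receptor, rose by 1.79 and SGK1, a kinase, by 1.495, and DUSP5 fell by 1.00. EGR2 also rose by 1.57 in adipocyte-rich spots, which share 47.8% of their spots with the Schwann-rich class. There 15 of 26 rose and 1 fell, beside 12.8% and 9.71% (median 0.57), with SIK1 at 1.06 and KLF4 at 1.02, and DUSP5 fell by 0.76.

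In macrophage-rich spots 13 of 26 rose and 0 fell, beside 10.2% and 6.85% of all genes (median 0.41), led by ZFP36L1 (1.14), BTG2 (0.69) and CCN1 (0.68). In satellite glia-rich spots 5 of 27 rose and 0 fell, beside 7.71% and 4.82% (median 0.18). DUSP6, a cytoplasmic ERK phosphatase, rose there by 0.62, NR4A2 by 0.47 and TRIB1, a pseudokinase, by 0.33. JUN lay closer to 0 than the list's median in all 8 classes, and FOS in those of satellite glia and macrophages.

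Among the kinases, regulators and partners, 8 of 23 rose in neuron-rich spots, beside 20.2% of all genes, led by MAP2K4, the kinase above JNK (0.70), MAPK10, the neuronal JNK3 (0.41), and CREM, a cAMP-responsive factor (0.39). There 3 fell, beside 21.5% of all genes: CAMK2A (-1.06), NAB1, a corepressor of EGR proteins (-0.42), and CREB1 (-0.34). In smooth muscle-rich spots 4 of 22 rose, beside 14% of all genes, including CREB1 (0.68), JDP2, a repressor of AP-1 (0.65), and SRF, the factor that activates FOS through its promoter element (0.63). There 4 fell, beside 9.35% of all genes, including MAPK10 (-0.93) and MAPK3 (-0.90).

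In fibroblast-rich spots 2 of 22 rose and 2 fell, beside 11.3% and 5.82% of all genes. In Schwann-rich spots 6 of 22 rose and 5 fell, beside 18.1% and 17.1%. In endothelium-rich, macrophage-rich, adipocyte-rich and satellite glia-rich spots 1 of 21, 0 of 21, 2 of 22 and 1 of 21 rose, and 0, 2, 3 and 2 fell. The shares of all genes there were 4.82%, 10.2%, 12.8% and 7.71% higher, and 1.72%, 6.85%, 9.71% and 4.82% lower. The list's median lay between -0.24 and -0.02 in all 8 classes, and that of all genes between -0.03 and 0.01.

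Of the 4 heat shock genes tested, 3 rose in neuron-rich spots: BAG3 (0.80), HSPH1 (0.26) and HSP90AA1 (0.21). In that class 20.2% of all genes rose, and the list's median was 0.23 beside -0.03 over all genes. These 3 genes went the other way from FOS there. None rose in the other 7 classes. In the Schwann-rich, satellite glia-rich, smooth muscle-rich, macrophage-rich and adipocyte-rich classes 2, 3, 2, 2 and 1 fell, and in the fibroblast-rich and endothelium-rich classes 0 fell. The shares of all genes that fell in these 7 classes were 17.1%, 4.82%, 9.35%, 6.85%, 9.71%, 5.82% and 1.72%, in the same order. The list's medians there lay between -0.49 and -0.07.

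**Figure D5:**
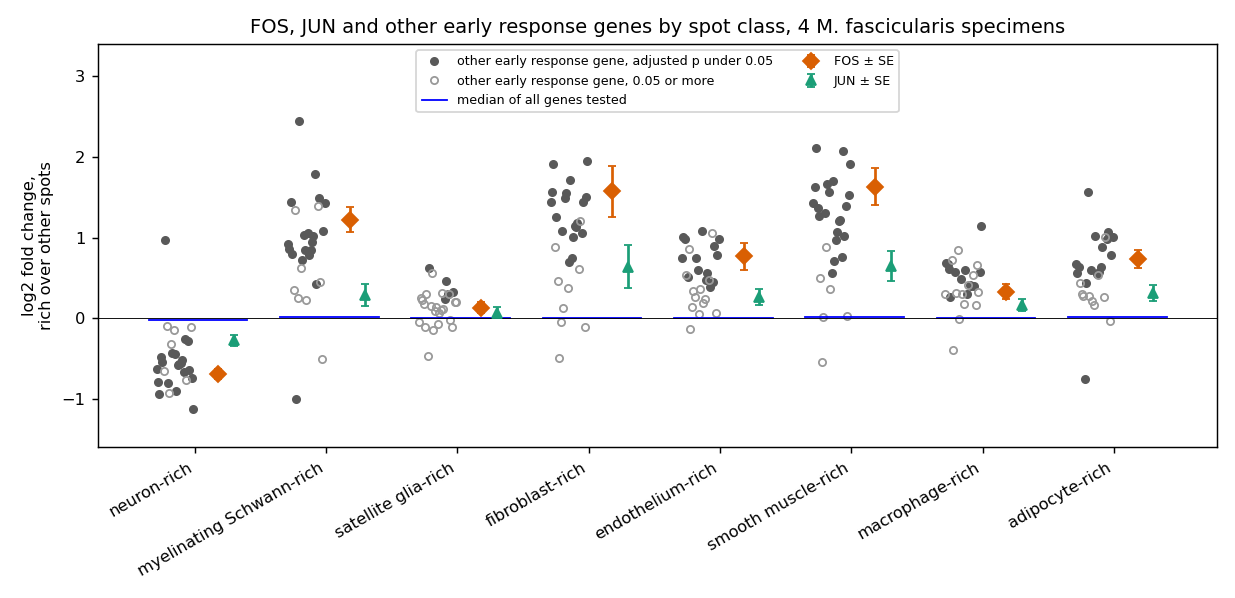
Log2 fold change between marker-rich and other spots for FOS and JUN (with SE) and for each tested gene of the list of other early response genes (filled, adjusted p under 0.05; open, 0.05 or more), over 4 *M. fascicularis* specimens; blue lines mark the median of all genes. In neuron-rich spots 19 of 27 list genes fell with FOS and JUN, and in smooth muscle-rich spots 21 of 27 rose.

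The genes whose pattern over spots was most like that of the summed immediate early genes were found by Pearson correlation of log-scaled spot values, as the median over 15 sections. Among 6211 genes with a mean of at least 20 CPM, the first 5 were DUSP1 (0.149), the unnamed feature ENSMFAG00000052456 (0.145), ZFP36 (0.137), ACTA2 (0.135) and SFRP4 (0.128). DUSP1, a phosphatase that inactivates MAP kinases, and ZFP36, which promotes mRNA decay, are in the list of other early response genes and were above 0 in 15 of 15 sections. ACTA2 is smooth muscle actin and is in the smooth muscle list, and SFRP4 is a secreted inhibitor of WNT signalling. All values are weak, and the spots of a section share a library.

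Over the 16 sections, after subtracting specimen means, the most similar genes were ENSMFAG00000003694 (r = 0.957), NFKBIA (0.956), BCL6 (0.945), ENSMFAG00000052456 (0.945) and FHL1 (0.938). NFKBIA encodes the inhibitor of NF-kappaB, BCL6 a transcriptional repressor and FHL1 a LIM domain protein. Without section 1 of the batch 1 female these were 0.891, 0.907, 0.936, 0.864 and 0.841. These values describe how sections of 1 specimen differ, and no p is given.

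Levels across labelled species were computed per 1000000 UMIs of the 13089 genes shared by all feature tables, and they are given without a test, since each other species has 1 title code. FOS had a median of 199 CPM (54.8 to 1837) over the 16 *M. fascicularis* sections on this scale. In the 2 sections labelled *P. anubis* it was at 33.6 and 49.1 CPM, on 345 UMIs, below all *M. fascicularis* sections. In the 2 sections labelled *M. mulatta* FOS had 1 UMI in all, and the levels were 10.3 and 0 CPM.

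JUN had a median of 161 CPM (92.5 to 707) in *M. fascicularis*. In the sections labelled *P. anubis* it was at 93.2 and 168 CPM, within that range. In those labelled *M. mulatta* it was at 14.8 and 41.2 CPM on 6 UMIs. JUN UMIs outnumbered FOS UMIs in both sections labelled *P. anubis*, as in the batch 2 female of *M. fascicularis*. In those labelled *M. mulatta* there were 4 JUN against 1 FOS and 2 JUN against 0 FOS UMIs, too few to order. FOS was detected in 11.1% of spots of the deeper section labelled *P. anubis* (294 of 2642; exact 95% interval 9.95% to 12.4%) and in 0.329% of the shallower one (10 of 3036; 0.158% to 0.605%).

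The genes matched only in these tables were scarce. JUNB had 5 UMIs in the sections labelled *P. anubis* and 1 in those labelled *M. mulatta*, and JUND had 10 in those labelled *P. anubis*. IER2 had 0 in those labelled *M. mulatta*, where 3 UMIs would be 15.8 and 11.3 CPM. EGR1 had 18 UMIs in the sections labelled *P. anubis* and 1 in those labelled *M. mulatta*, and EGR3 had 0 in both. FOSB had 7 UMIs in those labelled *P. anubis* and 0 in those labelled *M. mulatta*. At these counts no level of JUNB, JUND, FOSB or IER2 can be ordered between the labelled species.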

How the data were processed

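Per the file headers, the deposited matrices hold UMI counts per gene and spot from Space Ranger 2.0.0 (12 sections) or 2.1.0 (7 sections) and these versions split *M. fascicularis* by batch. The submitters' processing notes name Mmul_10, with no role. Moran's I scores with p-values and adjusted p-values, and gene totals under tissue, are the authors' deposited values, made per section. The deposited tables also give a signal, the mean count per spot at median depth by the authors, not used here. Matrix sums and deposited totals differed for 0 genes in 19 sections. Visium barcodes mark array positions, so barcodes shared between libraries do not mark shared cells. No regions were clustered and no doublets called.

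CPM, spot classes, regressions (statsmodels 0.14.6), thinning and Moran's I were computed from the counts in Python 3.11.15. Tests used edgeR 4.0.16 (filterByExpr, TMM, quasi-likelihood), with DESeq2 1.42.0 as an alternative, and a threshold of 0.05 on adjusted p-values. They were tested on simulated data. Where nothing says that specimens are separate animals, p-values measure only the spread between these samples. Features without a symbol stayed in totals. Marker lists and 3 gene lists were written by hand; of 41, 26 and 11 listed early, regulator and heat shock genes, 31, 23 and 4 matched a symbol. The genes and lists were chosen with earlier results of these data known. Genes named from the lists were the called ones with the largest change, at most 3 per list and direction. Marker lists of granulocytes, lymphocytes, red blood cells, skeletal muscle and perineurium were measured but defined no spot class. Sequences and coordinates are not given. Some results are not reported here.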

Additional observations from a re-analysis of the deposited data

Results flagged for a closer look

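The FOS fold change between endothelium-rich and other spots differed between batches by -1.19 (log2, batch 2 minus batch 1; SE 0.10, adjusted p = 3.21e-12), and that of JUN by -0.60 (SE 0.09, adjusted p = 1.68e-05), in edgeR's quasi-likelihood test over 4 specimens. FOS ratios were above 1 in 8 of 8 sections of batch 1 and in 2 of 7 of batch 2. The depth of the classes also differed by batch. Endothelium-rich spots were shallower than other spots in 7 of 15 sections, all in batch 1, and deeper in every section of batch 2. The part of depth in the difference was not tested. In the other 7 classes neither gene was called for a difference between batches, and there the adjusted p for FOS was between 0.103 and 1. The differences in fibroblast-rich spots (FOS -1.58, JUN -1.40) and smooth muscle-rich spots (FOS -1.12, JUN -0.94) were of similar or larger size, with wider SEs.

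Spots outside the tissue, which enter no comparison, held 1563 FOS UMIs and 893 JUN UMIs over 15 sections, above the limit that a count of 0 allows (3 counts). That limit is low for sums over so many spots, so passing it is not particular to FOS or JUN. The part of these UMIs in the levels near the tissue border was not tested.

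For FOS and JUN in the 4 groups of 4 sections, 8 sets of levels were examined for a section far from the others (Dixon's criterion at 95%), and 0 met it, section 1 of the batch 1 female included. With 4 sections in a set the criterion marks only a very large gap. A set that does not meet it can still hold a section unlike the others. Chance alone would mark about 1 set in 20.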

How the results depend on the processing

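Counts here are of the 3 genes FOS, JUN and EGR1 called in a comparison. Among 24 pairs of sections with equal number the median correlation of deviations was 0.0167, and 8 pairs exceeded 0.1. Among 72 pairs of unequal number the median was -0.00637, and 13 pairs exceeded 0.1. Pairs within and across batches were pooled, so these values cannot decide whether section numbers pair the samples within a batch. A grouping of sections 1 and 2 apart from the later sections was not tested. With sections as samples, FOS between batches was -1.13 (adjusted p = 0.161) with the replicate block and -1.57 (adjusted p = 0.0681) without it, and JUN between sexes was 0.094 and 0.15. Without the specimen as replicate block, all 7 spot class comparisons with calls had 0. With no filter the batch comparison had 1 gene, adipocyte 1 and endothelium 2. With the top 10% of spots the counts were 1 for satellite glia and adipocyte, 2 for fibroblast and endothelium and 0 for macrophage. With shares over neighbouring spots they were 2 for Schwann, fibroblast and endothelium, 1 for adipocyte and 0 for macrophage. After thinning to 500 UMIs they were 0 for Schwann, macrophage and adipocyte and 2 for fibroblast and endothelium, and satellite glia gave -0.19 for FOS and -0.27 for JUN. DESeq2 called 0 in endothelium. Adjusted over all 8 comparisons, satellite glia had 1. Settings chosen after seeing the data were interior spots (Schwann 2, satellite glia 1), batch 1 alone (Schwann, fibroblast and endothelium 2) and batch 2 alone (neuron, satellite glia, smooth muscle and adipocyte 1, and fibroblast, endothelium and macrophage 0). In batch 2 alone JUN was -0.073 in fibroblast and -0.069 in endothelium. Leaving out sections 1 and 2 of both batch 1 specimens gave 1 for satellite glia and adipocyte and 0.16 for JUN between batches.

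Leaving out 1 specimen or section at a time gave counts of 0 to 0 between batches and between sexes, 2 to 2 for neuron, 1 to 2 for Schwann and adipocyte, 0 to 2 for satellite glia, fibroblast and endothelium, 1 to 3 for smooth muscle and 0 to 1 for macrophage. JUN between sexes then ran from -0.20 to 0.15. Summed levels ran from 320.6 to 822.3 CPM in the batch 1 female, 255.6 to 344.2 in the batch 1 male, 102.0 to 110.7 in the batch 2 female and 290.3 to 333.3 in the batch 2 male. Summed without FOS they were 115.7 CPM in the batch 1 male, 69.3 in the batch 2 female and 121 in the batch 2 male. Over features with a symbol alone they were 136.9 in the batch 2 female and 403 in the batch 2 male. The neuron coefficient of the summed genes was -0.26, and -0.15 at a minimum of 1000 UMIs per spot. Causes were not tested. Of all counts and levels under other settings, 157 stayed within the limits of the main result and 67 moved. Of the fold changes of FOS and JUN, 270 kept their sign and their call or lack of it, whatever their size. Another 41 lost the call, 21 gained it and 12 changed sign. Counts of EGR1, FOSB, JUNB, JUND and IER2 are too low to order.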

Other observations

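Some other genes and marker lists also separated the specimens. The genes were chosen after their values were seen. EGR2, the myelination factor, was at 29.2, 24.3, 39.3 and 33.0 CPM in sections 1 to 4 of the batch 1 female and at 39.2, 27.7, 34.4 and 25.4 CPM in the batch 1 male. In the batch 2 male it was at 55.0, 41.0, 47.9 and 43.1 CPM, and in the batch 2 female at 2.79, 3.39, 4.59 and 3.32 CPM. As with FOS, the 4 sections of the batch 2 female were the lowest of the 16. The summed myelinating Schwann list was at 1778 ± 206 CPM (SD, n = 4) in that specimen, 2381 ± 657 in the batch 2 male, and 5084 ± 2370 and 4739 ± 799 in the batch 1 female and male.

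NFKBIA had its highest levels in the batch 2 male, at 258, 269, 340 and 342 CPM, above the 12 other sections. ZFP36 was at 268, 334, 374 and 269 CPM there, and at 380, 114, 90.6 and 91.2 CPM in the batch 1 female. The granulocyte list, which includes S100A8 and S100A9, was at 601 ± 175 CPM (SD, n = 4) in the batch 2 male, and at 56.1 ± 54.3, 24.2 ± 11.4 and 73.9 ± 23.6 CPM in the batch 1 female, the batch 1 male and the batch 2 female. The lymphocyte list was at 22.2 ± 9.77 CPM in the batch 2 male and between 10.8 and 27.9 CPM on average in the others. The red blood cell list averaged at most 3.11 CPM in any specimen, the skeletal muscle list between 9.01 and 22.2 CPM, and the perineurium list between 264.8 and 369 CPM.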
